A study of Mus musculus with 6 samples.

Results

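The 59 genes described here carry the symbols of initiation and elongation factors of cytosolic protein synthesis, among 55487 genes in the deposited tables. They are the protein-coding genes whose mouse symbol begins with Eif1 to Eif6, Eef1 or Eef2. Such symbols also take in genes that are not factors themselves, among them the methyltransferases of eEF1A and eEF2 and the eEF2 kinase. Outside the set were the eIF2 kinases, the eIF4E-binding proteins, and the X- and Y-linked pair Eif2s3x and Eif2s3y. RNA-seq had been done on 6 libraries of untreated MEFs, the fibroblasts that grow from dissociated mouse embryos. The 3 knockout (KO) libraries came from cells at passages 2, 3 and 4, and the 3 wild-type (WT) libraries from cells at the same passages, a passage being 1 round of detaching and replating. The labels do not name the deleted gene, the strain or the number of embryos, and the series title places the cells in work on mTORC1 and a chemokine axis in granulomas. The 3 libraries of a genotype may therefore come from 1 culture, and every p-value below measures only the spread between these libraries. No age or allele is given in the labels for either genotype.

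A few facts of the libraries touch every result. Totals ran from 24853121 to 67760880 expected counts. Genotype was read from the titles, although the genotype tags of 2 libraries, those titled KO at passages 3 and 4, say WT. Xist, which marks an inactive X chromosome, had 15654, 29034 and 17819 counts in KO libraries of passages 2, 3 and 4, against 5, 12 and 5 counts in WT libraries. Genotype and sex therefore cannot be told apart in any difference below. The cells carried fibroblast markers, whose summed level over 12 genes was 28998 to 33069 CPM in KO and 49586 to 60737 CPM in WT (counts scaled to a common library size). Of these 12 markers 5 fell in KO. Macrophage markers (10 genes, 9 of them tested) summed to 296, 94.2 and 44.9 CPM in KO at passages 2, 3 and 4, and to 409, 226 and 62.2 CPM in WT, and the erythroid genes Hba-a1, Hbb-bs and Hbb-bt were at 0 in all 6 libraries. The part of these differences between cultures in the results below was not tested. In bulk RNA, fewer cells of a type and less RNA per cell cannot be told apart.

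Translation of most cellular mRNAs begins when eIF4E binds the cap at the start of the message and recruits the scaffold eIF4G and the helicase eIF4A. The small ribosomal subunit arrives with eIF1, eIF1A, eIF3, eIF5 and the complex of eIF2, GTP and initiator tRNA, scans to the start codon, and is joined by the large subunit with the help of eIF5B. The eIF2B complex then recharges eIF2 with GTP, and eEF1A and eEF2 drive each round of elongation. In fibroblasts mTORC1 is known to control this machinery mainly through the eIF4E-binding proteins and through messages that begin with a 5' terminal oligopyrimidine (TOP) tract. Messages of ribosomal proteins and of several elongation and eIF3 factors belong to that TOP class.

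Levels of different genes were compared in TPM, in which abundances are corrected for transcript length and every library adds up to the same sum. The 59 mRNAs together took 2.07%, 2.07% and 2.13% of all TPM in KO at passages 2, 3 and 4, and 2.06%, 1.70% and 2.04% in WT. The WT library of passage 3 stood lowest, and the groups met at passage 2. Eef1a1, which delivers aminoacyl-tRNA to the ribosome, made up much of this, with 9106 ± 299 TPM in KO and 9409 ± 807 TPM in WT (SD, n = 3 each, as for every ± SD below). Without it, the other 58 members took 1.18% ± 0.012 of TPM in KO and 0.994% ± 0.124 in WT.

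Within complexes the levels were uneven in different degrees. Among the 12 eIF3 subunits other than the j subunit, mean TPM over all 6 libraries ran from 114 for Eif3m to 300.5 for Eif3c, a ratio of 2.64. The 5 eIF2B subunits ran from 20.8 for Eif2b3 to 41.4 for Eif2b2, a ratio of 1.99. The tested eEF1 subunits spanned more, from 273 TPM for Eef1d to 9258 TPM for Eef1a1. Eef1e1, grouped with them by its name, had 20.7 TPM. After Eef1a1 the highest members were Eef2, the translocase of elongation, at 1403 TPM, and Eef1b2, a subunit of the exchange factor for eEF1A, at 1138 TPM. Eef1a2, the form known from muscle and neurons, had at most 11 counts in a library, and Eif4e1b, known from oocytes, had 0 counts in all 6. Both fell under the filter on low counts, which left 57 members among 16603 genes tested. A count of 0 allows up to 3 counts, or 0.0431 to 0.124 CPM in these libraries, and covers counting error only.

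**Figure D1:**
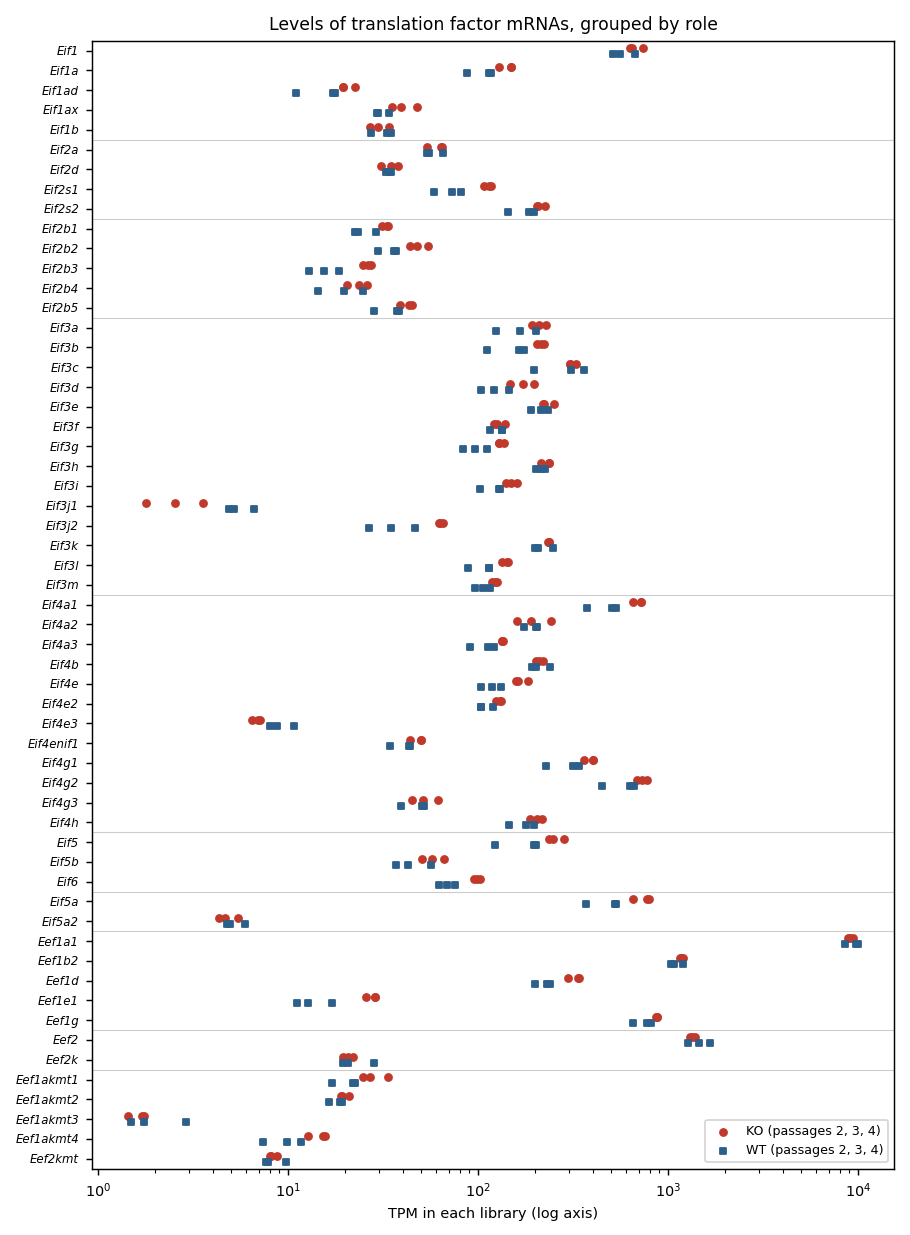
TPM of the 57 members tested in each library on a log axis, KO as red circles and WT as blue squares, with thin lines between the role groups. Levels run from 1.84 TPM for Eef1akmt3 to 9258 TPM for Eef1a1 (means over all 6 libraries), and within most genes the 6 points lie close together on this scale.

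The comparison of KO with WT asks which factor mRNAs differed with genotype, as labelled. Changes are log2 of KO over WT with their standard errors (SE), and a gene was called at an adjusted p under 0.05 (Benjamini-Hochberg over all 16603 genes, edgeR's quasi-likelihood test). By genotype alone 1 of 57 members was called (1.75%), against 2.48% of all genes tested. No member rose (background 0.934%), and Eif3j1 fell (background 1.55%). With passage as a block, a fit that compares KO with WT within each passage and leaves 2 residual degrees of freedom, 8 members were called (14.0%) against 11.1% of all genes. Of these, 6 rose (10.5%, background 4.69%): Eif2s1, Eif2b3, Eif3j2, Eif4e, Eif5 and Eef1e1. The 2 that fell (3.51%, background 6.37%) were Eif3j1 and Eif4e3. Within the block fit the share called in either direction was near the background, and the share that rose was above it. Alternatives chosen after seeing the data left out 1 passage at a time. The block fit then called 2 members without passage 2 (Eif3j1 and Eif3j2), 1 without passage 3 (Eif3j1) and 25 without passage 4, among them all 8. Over all genes the same fits called 639 of 16629, 248 of 16246 and 3197 of 17211.

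Most members lay a little higher in KO whether or not they were called. The fitted change was above 0 in 39 of 57 members (68.4%), against 48.4% of all genes tested. On the log2(TPM + 1) scale, where the median of all genes moved to 0.09, it was above 0 in 47 of 57 members (82.5%), against 62.9% of the 13640 genes tested on both scales, and Eef1akmt2, Eef1b2, Eif2a, Eif2d, Eif3f, Eif3h, Eif3k and Eif4a2 had turned sign. The median change was 0.18 for the members and -0.01 for all genes, with a range among members of -1.53 to 0.81. In CPM, all 3 KO libraries lay above all 3 WT libraries in 22 members (38.6%, background 13.1%) and below them in 6 (10.5%, background 14.1%). The 6 were Eef1a1, Eef2, Eif3j1, Eif4b, Eif4e3 and Eif5a2. At an unadjusted p under 0.05 stood 20 members (35.1%, background 21.3%), of which 18 were higher in KO (31.6%, background 10%) and 2 lower (3.51%, background 11.3%). DESeq2 called 11 members (19.3%, background 9.82%), of which 9 rose (15.8%, background 4.23%) and 2 fell (3.51%, background 5.59%).

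**Figure D2:**
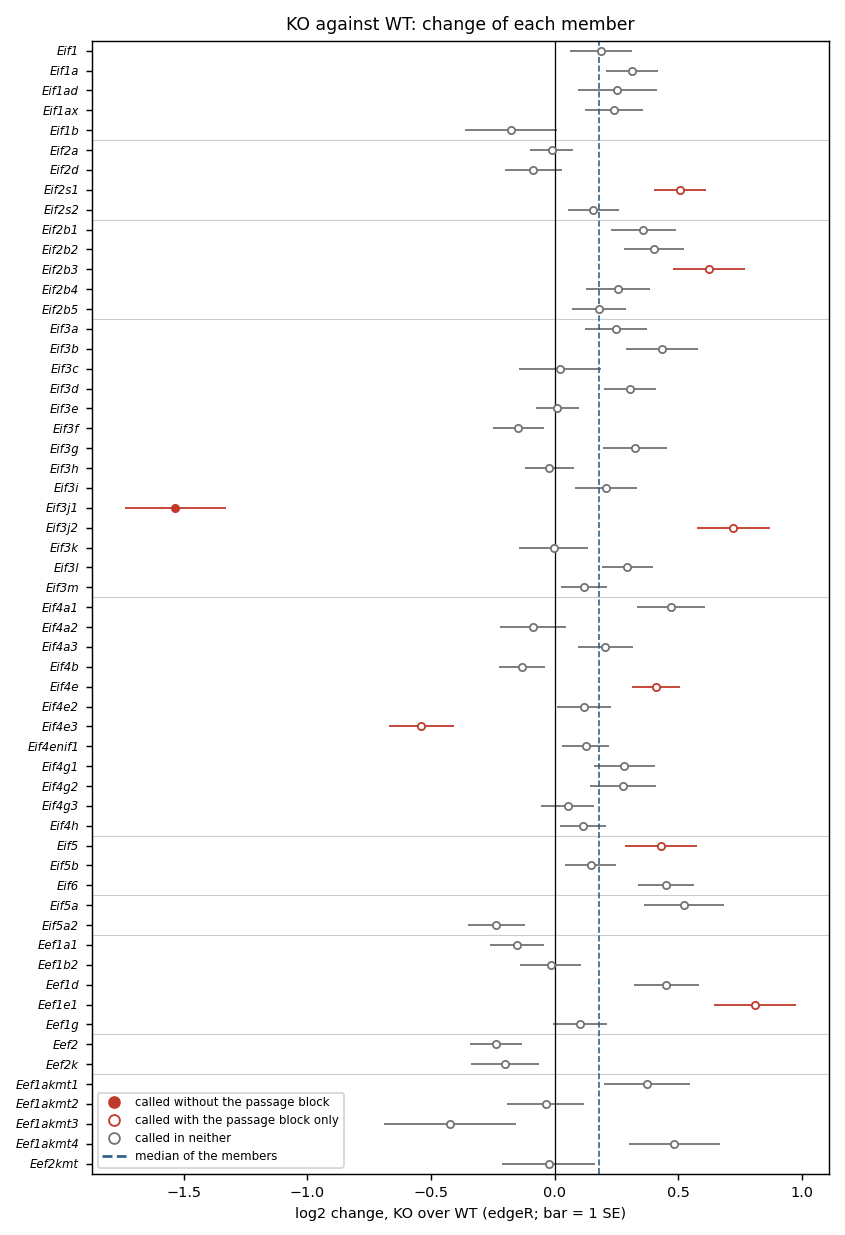
Fitted log2 change of each tested member, KO over WT, from edgeR with genotype alone, with bars of 1 SE; the dashed line is the members' median of 0.18. A filled red point was called by genotype alone (Eif3j1), open red points only with the passage block, and grey points in neither fit.

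The 5 members grouped under start codon scanning were Eif1, Eif1b, Eif1a, Eif1ax and, by its name alone, Eif1ad. None was called with edgeR in either fit or with DESeq2, and 1 had an unadjusted p under 0.05 by genotype. That was Eif1a, with 169, 178 and 166 CPM in KO at passages 2, 3 and 4, against 139, 122 and 151 CPM in WT (log2 0.31 ± 0.10 SE, adjusted p = 0.150). Its groups did not overlap. Eif1, the factor that holds the scanning ribosome open and the member of this group with the highest level, had 307, 252 and 239 CPM in KO and 232, 216 and 252 CPM in WT. Those ranges overlapped (log2 0.19 ± 0.12 SE, adjusted p = 0.434). Its paralogue Eif1b had 19.5, 15.6 and 13.1 CPM in KO and 17.2, 21.6 and 15.7 CPM in WT, also with overlap (log2 -0.18 ± 0.19 SE, adjusted p = 0.637). Eif1ax, the X-linked form of eIF1A, had 67.6 ± 7.4 CPM in KO and 57.2 ± 5.3 CPM in WT.

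Eif2s1 encodes eIF2 alpha, the subunit that stress kinases phosphorylate to slow initiation, and it rose in KO with the passage block. It had 144, 136 and 122 CPM in KO at passages 2, 3 and 4, against 98.3, 86.2 and 98.3 CPM in WT. Every KO library was above every WT library (log2 0.51 ± 0.10 SE, adjusted p = 0.0555 by genotype alone and 0.0227 with the block). Eif2s2, the beta subunit, had 282, 260 and 264 CPM in KO and 246, 216 and 261 CPM in WT, so that the lowest KO library lay just under the highest WT library (log2 0.16 ± 0.10 SE, adjusted p = 0.435). Eif2d, a factor that can bring tRNA to the small subunit without eIF2, had 36.4, 40.7 and 35.3 CPM in KO and 35.2, 43.0 and 41.1 CPM in WT, with full overlap (log2 -0.09 ± 0.12 SE, adjusted p = 0.723). Eif2a, another such carrier, had 64.8 ± 3.3 CPM in KO and 65.3 ± 1.4 CPM in WT.

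All 5 subunits of eIF2B, the exchange factor for eIF2, had fitted changes above 0, from 0.18 for Eif2b5 to 0.63 for Eif2b3, and 1 of them was called. Eif2b3, the gamma subunit, rose with the block, with 23.1, 22.6 and 20.6 CPM in KO and 13.0, 12.9 and 17.1 CPM in WT (log2 0.63 ± 0.14 SE, adjusted p = 0.0727 by genotype alone and 0.0357 with the block). The difference narrowed at passage 4, where WT was at its highest and KO at its lowest. Eif2b2, the beta subunit, had 34.8, 35.8 and 29.9 CPM in KO and 23.4, 24.7 and 28.1 CPM in WT, without overlap (log2 0.40 ± 0.12 SE, adjusted p = 0.125 and 0.0823 with the block). Eif2b5, the catalytic epsilon subunit, had 58.7, 58.1 and 55.8 CPM in KO and 50.1, 45.4 and 57.2 CPM in WT, where only the passage 4 libraries crossed (log2 0.18 ± 0.11 SE, adjusted p = 0.395).

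The eIF3 complex binds the small subunit and holds together the scanning machinery. Of its 14 subunit genes, 10 had a fitted change above 0 (median 0.16; 13 of 14 on the log2(TPM + 1) scale), and the 2 j genes were called, in opposite directions. Eif3c, the subunit gene with the highest level, had 539, 462 and 432 CPM in KO at passages 2, 3 and 4 and 542, 367 and 502 CPM in WT. The groups overlapped throughout (log2 0.02 ± 0.16 SE, adjusted p = 0.957), and the sign of this change turned when single libraries were left out. Eif3a, Eif3b, Eif3d, Eif3l and Eif3m each had all KO libraries above all WT libraries, and of these Eif3b had the largest fitted change, with 305 ± 19 CPM in KO and 225 ± 41 CPM in WT (log2 0.44 ± 0.15 SE, adjusted p = 0.150 and 0.0722 with the block).

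Eif3j1 and Eif3j2 share sequence and encode the j subunit, which sits loosely on eIF3 near the mRNA channel. Eif3j1 lies on chromosome 2 at 122028546 to 122056598 (GRCm38) and its coding transcript has 8 exons, whereas Eif3j2 lies on chromosome 18 and has 1 exon. Of their 64-base words, 48.8% for Eif3j1 and 89.4% for Eif3j2 also occur in transcripts of another gene, so the division of reads between them rests on the authors' model. Eif3j1 fell to 4.40, 5.25 and 7.31 CPM in KO, against 18.0, 15.3 and 15.8 CPM in WT. The groups lay far apart (log2 -1.53 ± 0.20 SE, adjusted p = 0.0155 by genotype alone and 0.00562 with the block). The call by genotype alone was lost without the KO library of passage 3 (adjusted p = 0.108), the WT library of passage 2 (0.0519) or the WT library of passage 3 (0.0873). Eif3j2 had 87.4, 82.6 and 74.7 CPM in KO and 58.8, 40.6 and 48.7 CPM in WT, and rose with the block (log2 0.72 ± 0.15 SE, adjusted p = 0.0522 by genotype alone and 0.0116 with it).

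Summed, the 2 copies rose in KO with the block. Their sum was 91.8, 87.8 and 82.1 CPM in KO and 76.8, 55.9 and 64.5 CPM in WT (log2 0.41 ± 0.13 SE, adjusted p = 0.136 by genotype alone and 0.0447 with the block). The division between the copies differed as well. Eif3j1 made up 4.79%, 5.98% and 8.91% of the sum in KO at passages 2, 3 and 4, against 23.4%, 27.3% and 24.5% in WT. With the copies summed, an alternative chosen after seeing the data, 0 of the then 56 members were called by genotype alone with edgeR and 7 with the block. Of all 16601 genes then tested, 405 were called by genotype alone and 1834 with the block.

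**Figure D3:**
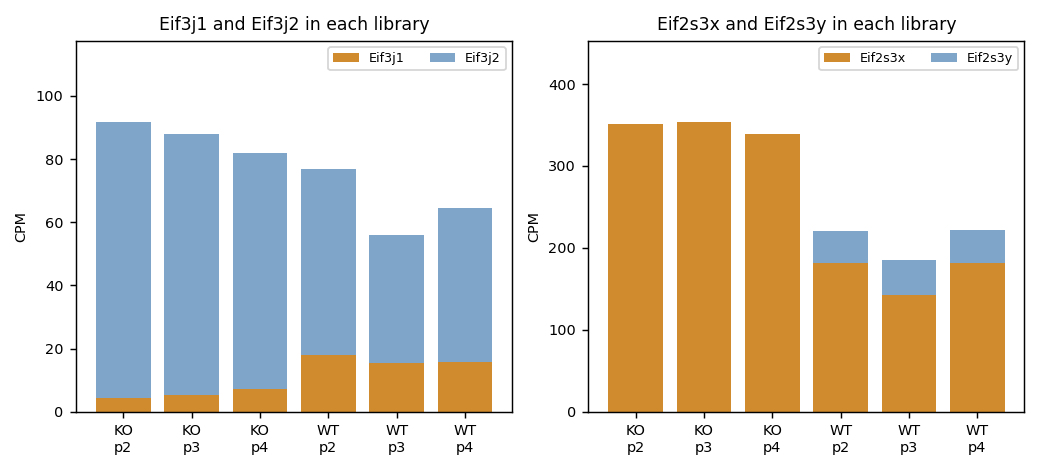
CPM per library of Eif3j1 and Eif3j2 (left) and of Eif2s3x and Eif2s3y (right), stacked, with 1 bar per library, KO left of WT and p2, p3 and p4 for passages 2, 3 and 4. The lower segment is Eif3j1 or Eif2s3x. Eif3j1 takes 4.79% to 8.91% of its sum in KO and 23.4% to 27.3% in WT, and Eif2s3y is seen only in WT bars.

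The eIF4 factors find the cap and unwind the start of the message. Eif4e, the cap-binding protein that the eIF4E-binding proteins sequester, rose in KO with the block. It had 101, 110 and 92.6 CPM in KO and 76.4, 73.1 and 78.7 CPM in WT (log2 0.41 ± 0.10 SE, adjusted p = 0.0756 by genotype alone and 0.041 with the block). All KO libraries were above all WT libraries. Eif4e3, a distant paralogue that binds the cap weakly, fell with the block, with 9.52, 9.51 and 8.71 CPM in KO and 14.37, 13.98 and 11.96 CPM in WT (log2 -0.54 ± 0.13 SE, adjusted p = 0.0798 and 0.0355 with the block). Per length, the TPM of Eif4e was 24.7 ± 1.3 times that of Eif4e3 in KO and 13.0 ± 1.6 times in WT, a pair of genes chosen after seeing their values.

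Eif4a1, the main cap-proximal helicase, had 731, 663 and 558 CPM in KO at passages 2, 3 and 4, against 482, 411 and 515 CPM in WT. The groups did not overlap, but neither edgeR fit called it (log2 0.47 ± 0.14 SE, adjusted p = 0.117 and 0.0573 with the block), while DESeq2 did (adjusted p = 0.0361). It shares 26.7% of its words with 10 other genes, most with the pseudogene Eif4a-ps4. Its paralogue Eif4a2 had 167 ± 19 CPM in KO and 178 ± 24 CPM in WT, and the TPM ratio of Eif4a1 to Eif4a2 was 4.47, 3.79 and 2.71 in KO and 2.64, 1.83 and 2.92 in WT. At passage 4 that ratio was lower in KO, and this pair was also chosen after seeing its values. Eif4g2, a scaffold that does not bind eIF4E and the group's most abundant mRNA, had 1339, 1309 and 1288 CPM in KO and 1175, 894 and 1180 CPM in WT, without overlap (log2 0.28 ± 0.13 SE, adjusted p = 0.283). Eif4b, a cofactor of eIF4A and a TOP mRNA, had 416 ± 21 CPM in KO and 456 ± 20 CPM in WT (log2 -0.13 ± 0.09 SE, adjusted p = 0.470).

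**Figure D4:**
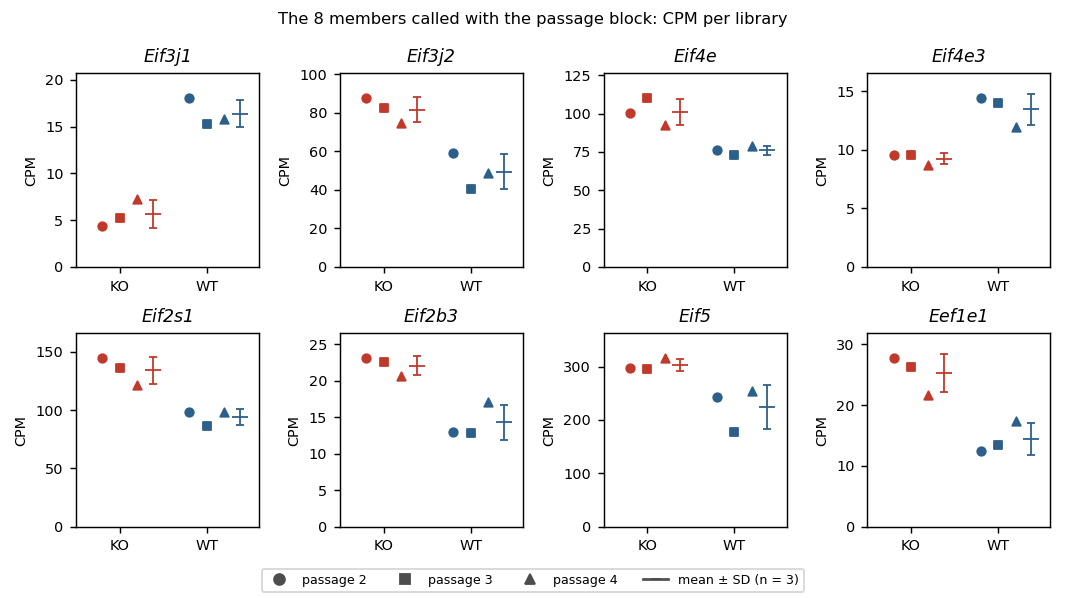
CPM per library of the 8 members called with the passage block, KO in red left of WT in blue, with circles, squares and triangles for passages 2, 3 and 4 and the mean ± SD (n = 3) beside them; each axis starts at 0. In all 8 panels the KO and WT points do not overlap, and in 6 of them (not Eif3j2 and Eif5) the difference in log2 CPM between KO and WT is smallest at passage 4.

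Eif5, which makes eIF2 hydrolyse its GTP at the start codon, rose in KO with the block. It had 297, 296 and 315 CPM in KO and 243, 177 and 253 CPM in WT (log2 0.43 ± 0.15 SE, adjusted p = 0.150 by genotype alone and 0.0487 with the block). The WT library of passage 3 was well under the other two. Eif6, which keeps free large subunits from joining, had 72.5, 70.9 and 60.7 CPM in KO and 47.8, 46.9 and 55.0 CPM in WT, and lay just outside the threshold in edgeR with the block (log2 0.45 ± 0.11 SE, adjusted p = 0.0848 and 0.0503 with the block), while DESeq2 called it (adjusted p = 0.0238). Eif5b, the GTPase of subunit joining, had 186, 183 and 186 CPM in KO and 187, 152 and 163 CPM in WT (log2 0.15 ± 0.10 SE, adjusted p = 0.465).

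eIF5A carries the modified lysine hypusine and helps the ribosome through difficult stretches of peptide. Eif5a had 548, 519 and 394 CPM in KO at passages 2, 3 and 4 and 336, 292 and 389 CPM in WT. The KO libraries of passages 2 and 3 stood well above WT and the passage 4 libraries nearly met (log2 0.52 ± 0.16 SE, adjusted p = 0.129 and 0.0842 with the block in edgeR, and 0.0442, a call, in DESeq2). Eif5a2, the minor form, had 13.2, 12.8 and 14.0 CPM in KO and 16.2, 16.3 and 14.5 CPM in WT (log2 -0.24 ± 0.12 SE, adjusted p = 0.288). The TPM of Eif5a was 156 ± 32 times that of Eif5a2 in KO and 91.1 ± 18.4 times in WT. This pair, too, was chosen after seeing its values.

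The mRNAs of the core elongation cycle did not share the upward tilt. Eef1a1, already named as the most abundant member, had 7058, 6683 and 6401 CPM in KO and 7278, 7532 and 7591 CPM in WT, without overlap (log2 -0.15 ± 0.11 SE, adjusted p = 0.467). Eef2 had 2366, 2205 and 2130 CPM in KO and 2717, 2513 and 2666 CPM in WT (log2 -0.24 ± 0.10 SE, adjusted p = 0.248 and 0.156 with the block). Neither was called, and in both the KO libraries were below the WT libraries in CPM at every passage. In TPM the KO library was the higher at passage 3, with 8827 against 8485 for Eef1a1 and 1339 against 1272 for Eef2. The changes on the log2(TPM + 1) scale were -0.04 and -0.11. Eef1a1 shares 32.4% of its words with transcripts of 17 other genes. Eef2k, the kinase that inhibits eEF2, had 35.4, 28.6 and 31.3 CPM in KO and 42.5, 33.2 and 33.7 CPM in WT (log2 -0.20 ± 0.14 SE, adjusted p = 0.454).

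Eef1e1 had the largest positive change of the set and rose with the block. Its product is known as a scaffold of the multi-tRNA synthetase complex more than as an elongation factor. It had 27.7, 26.3 and 21.7 CPM in KO, against 12.4, 13.4 and 17.4 CPM in WT (log2 0.81 ± 0.17 SE, adjusted p = 0.0539 by genotype alone and 0.0298 with the block). KO was above WT in every library, and the distance was smallest at passage 4. Eef1d, the delta subunit of the eEF1A exchange factor, had 133 ± 19 CPM in KO and 97.2 ± 8.7 CPM in WT (log2 0.45 ± 0.13 SE, adjusted p = 0.112 and 0.0678 with the block in edgeR, and 0.0451, a call, in DESeq2). The other exchange subunits, Eef1b2 and Eef1g, had changes of -0.02 ± 0.12 and 0.10 ± 0.11 (log2, SE), and Eef1g shares 40.9% of its words.

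The 5 methyltransferases that modify eEF1A or eEF2 were low in level, from 1.84 TPM for Eef1akmt3 to 24.5 TPM for Eef1akmt1, and none was called by edgeR in either fit or by DESeq2. In 1 of them the unadjusted p by genotype was under 0.05. That was Eef1akmt4, with 8.26, 8.96 and 8.52 CPM in KO at passages 2, 3 and 4 and 5.67, 5.13 and 7.66 CPM in WT (log2 0.48 ± 0.18 SE, adjusted p = 0.190 and 0.0950 with the block), a gene that shares 28.1% of its words. Eef1akmt1 had 12.2, 13.9 and 9.54 CPM in KO and 8.98, 8.37 and 10.2 CPM in WT (log2 0.37 ± 0.17 SE, adjusted p = 0.269). Eef1akmt3 had 2.74, 2.10 and 2.38 CPM in KO and 4.18, 3.03 and 2.40 CPM in WT, with overlap of the groups (log2 -0.42 ± 0.27 SE, adjusted p = 0.414).

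The promoters of several members carry an E-box, the letters CACGTG, which read the same on both strands and are bound by MYC and related factors. Eif4e, Eif5a, Eif4a1 and Eef2 hold the motif and were chosen after seeing their values. Their fitted changes were 0.41, 0.52, 0.47 and -0.24. Of these genes edgeR called only Eif4e, and only with the block. A link between the motif and these changes was not tested. Each window is the 250 bases before a RefSeq start of the gene, taken among starts whose window holds the motif (GRCm38.p6). Bases run 5' to 3' on the gene's strand, with the motif in capitals. The Eif5a window lies inside the annotated gene, which spans 69916714 to 69921958. For Eif4e, whose upstream bases lie in an exon of a longer transcript, only 30 bases around each of its 2 motifs are given.
Eif4e, chr3:138527028-138527057, plus strand, motif 228 bases before the start: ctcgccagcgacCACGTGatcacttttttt
Eif4e, chr3:138527192-138527221, plus strand, motif 64 bases before the start: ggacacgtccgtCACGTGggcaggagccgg
Eif5a, chr11:69921387-69921636, minus strand, motif 74 bases before the start: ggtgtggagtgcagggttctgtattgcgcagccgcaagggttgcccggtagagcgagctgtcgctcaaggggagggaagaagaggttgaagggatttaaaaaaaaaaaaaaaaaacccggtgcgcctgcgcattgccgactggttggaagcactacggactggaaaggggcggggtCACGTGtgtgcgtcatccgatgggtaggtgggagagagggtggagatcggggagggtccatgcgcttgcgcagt
Eif4a1, chr11:69672424-69672673, minus strand, motif 189 bases before the start: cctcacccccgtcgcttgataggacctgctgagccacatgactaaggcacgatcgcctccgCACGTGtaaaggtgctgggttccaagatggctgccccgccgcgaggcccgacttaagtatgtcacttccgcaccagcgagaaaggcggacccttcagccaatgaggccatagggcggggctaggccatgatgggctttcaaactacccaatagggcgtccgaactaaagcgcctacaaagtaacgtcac
Eef2, chr10:81176381-81176630, plus strand, motif 43 bases before the start: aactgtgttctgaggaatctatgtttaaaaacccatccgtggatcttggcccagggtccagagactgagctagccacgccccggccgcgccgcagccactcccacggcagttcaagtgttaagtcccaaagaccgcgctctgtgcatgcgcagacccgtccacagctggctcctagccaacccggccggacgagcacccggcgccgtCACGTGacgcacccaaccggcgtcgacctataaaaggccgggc

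Of the 59 members 45 matched the RefSeq promoter table. Among the 45, 12 (26.7%) held CACGTG in the 250 bases before any listed start. The share of all 27025 genes in the table was 6.86% (1854 genes). Those 27025 genes were not limited to genes tested here, so these shares cover unlike sets, and the share among tested genes was not computed. Of the 12, 6 had a fitted change above 0 and 6 below (8 and 4 on the log2(TPM + 1) scale), with a median of 0.06 and a range of -0.24 to 0.52. Among the 32 tested members in the table without the motif, 23 were above 0 and 9 below, with a median of 0.17. A match of letters is a description of these windows and says nothing of which factor binds there.

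The 11 members known as TOP mRNAs (Eef1a1, Eef1b2, Eef1d, Eef1g, Eef2, Eif3a, Eif3e, Eif3f, Eif3h, Eif3l and Eif4b) had a median change of -0.02, and 5 of the 11 were above 0 (0.10 and 8 of 11 on the log2(TPM + 1) scale). The 46 other tested members had a median of 0.21, and 34 were above 0 (0.32 and 39 of 46 on the log2(TPM + 1) scale). Of all genes tested, 48.4% were above 0 (62.9% on the log2(TPM + 1) scale). The TOP members held 0 of the calls by genotype alone (background 2.48%) and 0 with the block in edgeR (background 11.1%). At an unadjusted p under 0.05 by genotype, 2 were higher (background 10%) and 0 lower (background 11.3%). By DESeq2 1 rose (background 4.23%). The difference between the TOP members and the other members was not tested. The mRNAs of 76 cytosolic ribosomal proteins, the main body of the TOP class, had a median of -0.11, and 14 of the 76 were above 0 (0.01 and 40 of 76 on the log2(TPM + 1) scale). For these edgeR called 0 by genotype alone, with 2 higher at an unadjusted p under 0.05, and 2 rose with the block and by DESeq2.

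Set out by passage, where each value rests on a single KO and a single WT library and no test is possible, the distance between KO and WT was largest at passages 2 and 3. KO was above WT in 46 of 57 members at passage 2 (80.7%, background 46.9%), in 38 at passage 3 (66.7%, background 48.5%) and in 29 at passage 4 (50.9%, background 49.5%). The median difference in log2 CPM was 0.27, 0.29 and 0.00 at the 3 passages for the members, against -0.03, -0.02 and -0.00 for all genes tested. At passage 4 the members as a set thus stood where all genes stood. Even so, 26 members were above WT at all 3 passages (45.6%, background 24.1%) and 8 below at all 3 (14.0%, background 27.4%). The passage block fit without the passage 4 libraries, chosen after seeing the data, called 25 members (43.9%, background 18.6%), of which 23 rose (40.4%, background 9.37%) and 2 fell (3.51%, background 9.20%).

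Other lists moved across the passages beside the members. For 12 genes of cycling cells the median difference, KO minus WT, was 0.35, 0.53 and -0.22 in log2 CPM at passages 2, 3 and 4, and their summed level was 1519, 1339 and 885 CPM in KO and 1393, 1127 and 996 CPM in WT. The ribosomal protein mRNAs had 0.40, -0.32 and -0.49. The TOP members had 0.09, -0.02 and -0.15, and the other members 0.29, 0.34 and 0.01. The part of cell cycling in the members' differences was not tested.

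**Figure D5:**
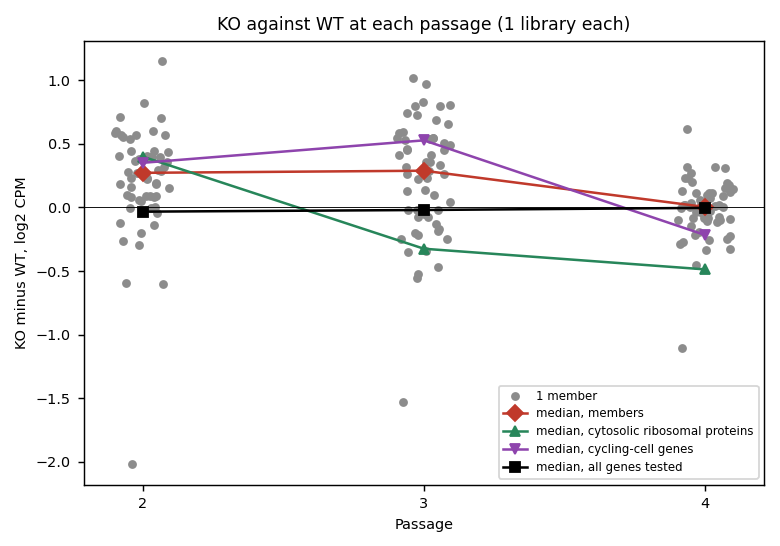
Difference in log2 CPM, KO minus WT, at passages 2, 3 and 4, with a grey point per member and lines for the medians of the members, of 76 cytosolic ribosomal proteins, of 12 genes of cycling cells and of all genes tested. The members' median is 0.27, 0.29 and 0.00, and that of all genes is -0.03, -0.02 and -0.00.

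The order of the libraries within a genotype differed between KO and WT. In KO, 44 of 57 members were highest at passage 2 (77.2%, background 37.0%) and 44 were lowest at passage 4 (77.2%, background 37.6%). In WT, 37 were highest at passage 4 (64.9%, background 36.7%) and 34 were lowest at passage 3 (59.6%, background 29.6%). The median slope per passage was -0.08 in KO and 0.06 in WT (log2 per passage). The difference of slopes, KO minus WT, was below 0 in 46 members (80.7%, background 46.7%), with a median of -0.13 against 0.02 for all genes.

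No single member passed the test of that difference. The interaction of genotype and passage was fitted with 2 residual degrees of freedom. DESeq2 called 0 members for it, against 85 genes in all. With edgeR 0 of 57 members and 0 of all 16603 genes were called (background 0%). At an unadjusted p under 0.05, 7 members stood out (12.3%, background 6.85%). Eef1b2, Eef1d, Eef1e1, Eif3g, Eif3i and Eif3k had a more negative slope in KO than in WT, and Eif3j1 a more positive one. Eif3k shows the pattern plainly, with 98.2, 89.2 and 81.8 CPM in KO at passages 2, 3 and 4, against 74.1, 92.5 and 103 CPM in WT (difference of slopes -0.37, unadjusted p = 0.00898 in edgeR's quasi-likelihood test).

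The slope per passage common to both genotypes, in which the KO and WT slopes are averaged and can cancel, was small for most members. With genotype as a covariate, edgeR called 0 of 57 members for a slope per passage, against 6.25% of all genes. DESeq2 called 0 members as well, against 1704 genes in all. At an unadjusted p under 0.05, 2 members had a slope (3.51%, background 21.2%), Eef2kmt and Eif1ax, both downward. The median size of the common slope, leaving out its sign, was 0.04 for members and 0.12 for all genes tested (log2 per passage), and slopes ran from -0.25 to 0.12.

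Other genes of the pathway were counted by lists. Of 8 genes of the eIF2 gamma subunit, the eIF2 kinases and the eIF2 phosphatase subunits, 1 rose and 1 fell by genotype alone, and both were gamma subunit genes. With the block 1 rose and 2 fell. Eif2s3x, on the X chromosome, had 351, 354 and 339 CPM in KO and 181, 143 and 181 CPM in WT, and rose (log2 1.05 ± 0.12 SE, adjusted p = 0.00995). Eif2s3y, on the Y chromosome, had 0, 0 and 8 counts in KO and 1668, 1681 and 980 counts in WT, and fell (adjusted p = 0.00210). The sum of both was 348 ± 7.6 CPM in KO and 209 ± 21 CPM in WT (log2 0.74 ± 0.11 SE, adjusted p = 0.0192), so that the gamma subunit mRNA as a whole was also higher in KO. Summing these copies was chosen after seeing the data. Eif2s3x shares 34.3% of its words with other genes. Eif2ak3, which encodes the stress kinase PERK, fell with the block only, with 32.3 ± 2.7 CPM in KO and 43.5 ± 0.7 CPM in WT (log2 -0.43 ± 0.10 SE, adjusted p = 0.0741 and 0.0352 with the block).

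Genes that control eIF4E and eIF4A gave 0 calls among 10 with edgeR in either fit and 0 with DESeq2, with 1 higher and 1 lower at an unadjusted p under 0.05 by genotype. Eif4ebp1 and Eif4ebp2, the mTORC1-regulated brakes on eIF4E, had 84.4 ± 13.9 and 135 ± 12 CPM in KO and 80.3 ± 5.4 and 127 ± 11 CPM in WT. Their changes were 0.07 ± 0.13 and 0.09 ± 0.11 (log2, SE). Among 5 poly(A)-binding genes edgeR and DESeq2 called 0, with 0 at an unadjusted p under 0.05, and Pabpc1, the main cytosolic poly(A)-binding protein, had 1549 ± 84 CPM in KO and 1559 ± 140 CPM in WT. Of 3 helicase genes of scanning, the Y-linked Ddx3y fell, with 0.27 ± 0.40 CPM in KO and 82.6 ± 8.0 CPM in WT. Its X-linked partner Ddx3x had 524 ± 5.8 CPM in KO and 384 ± 50 CPM in WT. Ddx3x rose with the block (log2 0.45 ± 0.12 SE, adjusted p = 0.0905 by genotype alone and 0.0338 with the block in edgeR). The sum of this pair was not tested.

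Of 8 genes of termination and recycling 1 rose by genotype alone and 3 with the block. Denr, which with its partner MCTS1 frees small subunits after termination and aids reinitiation, had 75.5, 74.0 and 62.0 CPM in KO and 48.9, 44.5 and 49.3 CPM in WT (log2 0.57 ± 0.11 SE, adjusted p = 0.0443 and 0.0210 with the block). Abce1, which splits ribosomes after termination, had 244 ± 16 CPM in KO and 181 ± 25 CPM in WT (log2 0.43 ± 0.12 SE, adjusted p = 0.0414 with the block). Etf1, the release factor that reads stop codons, had 259 ± 17 CPM in KO and 195 ± 22 CPM in WT (log2 0.41 ± 0.12 SE, adjusted p = 0.0478 with the block).

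Of 9 genes that make hypusine on eIF5A or diphthamide on eEF2, 8 had a change above 0 and edgeR called 0 by genotype alone, with 4 higher and 0 lower at an unadjusted p under 0.05. With the block 2 rose, and DESeq2 called 2, both higher. Those of the block fit were Dph2, with 8.76 ± 0.66 CPM in KO and 5.85 ± 0.79 CPM in WT (log2 0.58 ± 0.16 SE, adjusted p = 0.0423 with the block), and Dph5, with 9.39 ± 0.80 CPM in KO and 6.27 ± 0.49 CPM in WT (log2 0.59 ± 0.15 SE, adjusted p = 0.0486 with the block), both enzymes of diphthamide synthesis. Of 5 selenocysteine genes 1 rose with the block, Sephs2, a selenophosphate synthetase, with 44.6 ± 2.2 CPM in KO and 33.0 ± 2.5 CPM in WT (log2 0.43 ± 0.10 SE, adjusted p = 0.0421). Among 9 mitochondrial translation factors edgeR called 0 in either fit and DESeq2 0, with 3 higher and 0 lower at an unadjusted p under 0.05 by genotype.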

How the data were processed

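Trimmomatic 0.39, RSEM and the build GRCm38 are named in the submitters' processing notes. For the aligner, the RSEM version, the annotation release and strand handling the answer is not given in the sources used here. In the authors' deposited tables are expected counts (12% to 15.8% of values not whole, since RSEM divides ambiguous reads), TPM, FPKM and transcript lengths, of which FPKM was not used. Of 55487 Ensembl IDs, 55227 (99.5%) matched GENCODE M21 and took its symbols. Eef1aknmt was not matched, so 5 methyltransferases remain. Expected counts were rounded, scaled by TMM (the source of CPM), filtered by genotype (minimum count 10) and tested 2-sided with edgeR 4.0.16 (robust quasi-likelihood) in R 4.3.3. The genotype fit has 4 residual degrees of freedom, the passage fit 3, and the interaction and block fits 2. Each SE from edgeR was derived as the size of the log2 change divided by the square root of its F statistic. Alternatives used DESeq2 1.42.0, limma 3.58.1, limma on log2(TPM + 1) or log2(TPM + 0.1), other filters and libraries left out.

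Same-passage libraries deviated together from their group means (r of 0.488, 0.137 and 0.416 at passages 2, 3 and 4, each over 0.1), so passages were taken to pair the libraries. A word is any run of 64 bases in a gene's transcripts, and sharing is named from 25%. The members and lists were chosen with earlier results of these data known. Full values are given for members called in the genotype, block, passage or interaction fit and, per role, for the most abundant member and those with the largest rise and fall.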

Additional observations from a re-analysis of the deposited data

How the results depend on the processing

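By genotype alone 1 member was called. The count was 8 with passage as a replicate block, 11 with DESeq2, 5 with no filter on low counts, 3 with limma-voom, 2 with effective lengths as offsets, 2 on log2(TPM + 1) and 2 on log2(TPM + 0.1). It was 0 without both passage 2 libraries. Leaving out 1 library at a time gave 0 to 3, with 0 without the KO library of passage 3 or the WT library of passage 2 or 3, and 3 without the WT library of passage 4. Alternatives chosen after seeing the data gave 0 with the j copies summed, 7 with these copies summed and the replicate block, and, with the block, 2 without passage 2, 1 without passage 3 and 25 without passage 4. Calls over all genes tested moved as well. They numbered 412 by genotype alone, 1835 with the block, 1537 with DESeq2, 846 with no filter and 468 with limma-voom. With effective lengths there were 345, on either TPM scale 314, and without both passage 2 libraries 59. Leaving out 1 library gave 38 to 847. The number was 38 without the KO library of passage 3, and 109 and 45 without the WT libraries of passages 2 and 3. The block gave 639 without passage 2, 248 without passage 3 and 3197 without passage 4. The cause of these differences was not tested. The call of Eif3j1 was lost in 7 of the alternatives, all with log2 changes below 0. The members' median change stayed between 0.12 and 0.29 under every alternative run, and was 0.19 by the genotype tag (1 KO against 5 WT libraries). On the TPM scales it was 0.28, where the median of all genes was 0.09 or 0.10. Over all 57 members, 8 turned sign on both TPM scales (Eef1akmt2, Eef1b2, Eif2a, Eif2d, Eif3f, Eif3h, Eif3k and Eif4a2) and Eif3k with the block, DESeq2 or RLE size factors. Every alternative was followed for single genes only in the 28 members with full values. Among them signs turned for Eef2k (0.063) and Eif1b (0.23) by the genotype tag, for Eif2d (0.0213 on log2(TPM + 0.1), 0.0209 on log2(TPM + 1) and 0.0077 with the block without passage 4) and for Eif3c (-0.11 with the block without passage 3, and -0.12 to 0.13 leaving out 1 library at a time). Calls of members for passage and interaction were 0 under every alternative run. Over all genes these alternatives called 157 to 2443 for passage and 0 to 289 for interaction. Depth was not varied. Eef1a2 and Eif4e1b, at 0 to 11 counts in a library, fell under the filter on low counts.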
